A study of Mus musculus with 18 samples.

Results

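Tumours left in place after ablation of another tumour were compared by RNA sequencing: 6 tumours from cryo-thermal animals against 12 from animals given a single ablation. The tumours were assigned by the treatment label alone and make up all 18 tumours of the series. The cryo-thermal side held 3 tumours with an antibody against PD-1 and 3 without it. The single-ablation side held 3 tumours after cryoablation plus anti-PD-1, 3 after radiofrequency ablation plus anti-PD-1, 3 after cryoablation alone and 3 after radiofrequency ablation alone. Cryoablation freezes a tumour, radiofrequency ablation heats it by electric current, and cryo-thermal therapy freezes a tumour and then heats it. An ablation was thus common to all 6 groups, and animals with no ablation were not analysed here. The sources used here give no tumour line, mouse strain, sex, age, antibody dose or day of collection. Separate animals are not stated in the labels, so the p-values speak only of how these samples varied, and part of that may be technical. The series title concerns T cell infiltration, anti-PD-1 efficacy and mature myeloid cells positive for CCL5.

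T cells and natural killer (NK) cells that meet their target release interferon gamma. The cytokine acts through factors that bind gamma-activated sites (GAS) in promoters and through IRF1, which binds interferon-stimulated response elements (ISRE). Targets include guanylate-binding proteins, immunity-related GTPases, the immunoproteasome and the MHC genes that present peptides to T cells. The same cytokine induces PD-L1, the ligand through which tumours and myeloid cells restrain T cells bearing PD-1.

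The genes with the largest consistent differences (defined with the counts) carry such motifs in some of their promoters, and 4 promoters are shown for that reason. Windows run from 250 bases before to 50 after the RefSeq start, and their build is GRCm38.p6, which need not be the authors' build. They belong to the leading genes with the largest differences for which a window is shown. Capitals mark matches of TTCNNNGAA (a GAS) or of an ISRE core, which is TTTC followed after NN by TTTC, or its reverse complement, GAAA followed after NN by GAAA. Both strands were searched, and the motifs do not overlap in these windows. Tgtp1 (NCBI gene 21822, an immunity-related GTPase) is at chr11:48992197-48992496, minus strand, and Igtp (NCBI gene 16145, of the same family) at chr11:58199306-58199605, plus strand. Serpina3f (NCBI gene 238393, a serine protease inhibitor; 1 of 2 windows) is at chr12:104214294-104214593 and Ubd (NCBI gene 24108, the ubiquitin-like modifier FAT10) at chr17:37193642-37193941, both on the plus strand.
Tgtp1: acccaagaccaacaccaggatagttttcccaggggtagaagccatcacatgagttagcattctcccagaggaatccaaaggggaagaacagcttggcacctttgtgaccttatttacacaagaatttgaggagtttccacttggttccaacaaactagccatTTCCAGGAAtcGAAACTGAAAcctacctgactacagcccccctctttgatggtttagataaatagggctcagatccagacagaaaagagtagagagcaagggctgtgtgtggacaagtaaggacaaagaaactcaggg
Igtp: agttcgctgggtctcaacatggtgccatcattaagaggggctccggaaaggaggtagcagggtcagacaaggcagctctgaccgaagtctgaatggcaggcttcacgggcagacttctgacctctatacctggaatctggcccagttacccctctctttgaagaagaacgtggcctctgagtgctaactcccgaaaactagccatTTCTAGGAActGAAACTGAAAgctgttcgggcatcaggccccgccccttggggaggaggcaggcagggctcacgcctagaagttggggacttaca
Serpina3f: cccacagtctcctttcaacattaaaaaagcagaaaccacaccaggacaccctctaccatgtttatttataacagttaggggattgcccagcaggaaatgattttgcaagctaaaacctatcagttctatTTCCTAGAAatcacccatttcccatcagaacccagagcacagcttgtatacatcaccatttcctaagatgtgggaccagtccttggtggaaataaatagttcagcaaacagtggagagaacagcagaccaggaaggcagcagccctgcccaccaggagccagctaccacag
Ubd: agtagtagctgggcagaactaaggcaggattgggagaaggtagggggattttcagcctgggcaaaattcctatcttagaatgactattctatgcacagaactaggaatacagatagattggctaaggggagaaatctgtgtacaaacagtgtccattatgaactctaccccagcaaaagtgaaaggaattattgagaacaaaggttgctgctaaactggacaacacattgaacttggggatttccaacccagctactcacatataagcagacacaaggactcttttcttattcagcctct
Tgtp1 had a GAS whose first base lay at position -88 from the start and an ISRE core at -77. Igtp showed the same pair at -45 and -34, with the same gap between the motifs. Serpina3f had a GAS at -121, and no match was found in the Ubd window. A GAS was present in 8.3% of all 32851 RefSeq windows and an ISRE core in 3.44%. Among windows of consistent genes that were higher by more than 2-fold, 26.6% held a GAS and 25.3% an ISRE core (79 windows of 67 genes of 98). Over all consistent higher genes the shares were 12% and 9.72% (617 windows of 473 genes of 631), and over all genes tested 7.02% and 3.2% (12715 windows). Among windows of consistent lower genes the shares were 4.53% and 0.85% (353 windows of 263 genes of 327). Genes of a family share promoter sequence, and a match is a description, not a binding site.

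Estimated depth was close in all tumours, at 37400000 to 38800000 fragments. Across genes, log2 levels correlated at 0.988 to 0.997 within groups and 0.982 to 0.997 between groups. Some tumours stood apart in RNA of skin or blood. For 15 keratinocyte and hair follicle genes the mean log2(FPKM + 1) was 4.08 in cryo-thermal plus anti-PD-1 replicate 1. After cryoablation with anti-PD-1 it was 3.45 in replicate 1 and 3.34 in replicate 2, and it was 0.702 to 2.63 in the other tumours. Summed FPKM of 9 erythroid genes ran from 23.6 to 211 in the 3 cryo-thermal tumours without antibody, against 36.9 to 994 (median 655) in the 6 single-ablation tumours without it. With anti-PD-1 the order turned, with 81.2 to 317 in cryo-thermal tumours and 45.9 to 104 (median 70.6) in single-ablation tumours. The label gives the tissue only as tumour. Epithelial genes were low, with 12 markers summing to 2.54 to 11.6 FPKM in cryo-thermal and 3.56 to 11.7 FPKM in single-ablation tumours. The melanocyte gene Mlana was listed at 0 in all 6 cryo-thermal tumours and reached 0.149 FPKM in the single-ablation tumours.

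Of 12587 genes tested (mean of at least 0.5 FPKM), 1862 or 14.8% passed the pooled test at an adjusted p of 0.05, with 1135 (9.02%) higher and 727 (5.78%) lower in cryo-thermal tumours. Of these, 110 were higher and 5 lower by more than 2-fold on the log2(FPKM + 1) scale, which understates changes of low genes. The median difference over all genes was -0.0031. Quantile normalisation turned the split, with 986 higher and 1158 lower, so the balance of directions over all genes rests on the scaling. The number fell to 917, 1178, 1238 and 1161 when cryo-thermal replicate 1 or 2, or cryo-thermal plus anti-PD-1 replicate 2 or 3, was left out. Without the 3 tumours rich in hair follicle RNA, 1697 genes passed, 1460 of them also in the full set.

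The antibody states share no tumours, so their differences can be set side by side. Their p-values come from 1 fit with a shared spread and are not independent. A gene was called consistent where the pooled test passed and both states gave the same sign with an unadjusted p under 0.05. There were 958 consistent genes, which is 7.61% of the genes tested and 51.5% of the pooled calls, with 631 (5.01%) higher and 327 (2.6%) lower. All 1862 pooled calls had 1 sign in both states, against 66.4% of all genes tested, and the pooled test itself favours such genes. Quantile normalisation gave 538 higher and 499 lower consistent genes. Leaving out cryo-thermal replicate 1 left 509, with 485 of them in the full set. With erythroid level as a covariate there were 230, with 201 in the full set. In a stricter reading, 238 consistent genes (1.89%) had cryo-thermal values that did not overlap the single-ablation values in either state, 181 higher (1.44%) and 57 lower (0.453%). Of all genes tested, consistent or not, 185 were higher (1.47%) and 67 lower (0.532%) without overlap in both states, together 252 (2%). With anti-PD-1 alone 961 genes were higher (7.63%) and 665 lower (5.28%) without overlap, and without it 628 were higher (4.99%) and 540 lower (4.29%). Without regard to antibody, 24 genes were higher (0.191%) and 14 lower (0.111%) with no overlap between the 6 and the 12 tumours.

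Each state gave fewer calls by its own contrast, in 1 fit of all 18 tumours with a shared spread. With anti-PD-1, 569 genes passed (4.52%), 405 higher (3.22%) and 164 lower (1.3%). Without it 579 passed (4.6%), 383 higher (3.04%) and 196 lower (1.56%). Under quantile normalisation these splits were 339 against 239 and 320 against 243. Of the calls with anti-PD-1, 20.0% were also called without it in the same direction, and of those without it, 19.7% were also called with it (114 genes). Another 4 genes were called in both states with opposite signs. Across genes, which are not independent replicates, the log2 differences of both states had a Pearson r of 0.471. The counts per state rested on single tumours. With anti-PD-1 the count was 31 or 26 without cryo-thermal plus anti-PD-1 replicate 2 or 3, 298 or 252 without cryoablation plus anti-PD-1 replicate 2 or 3, and 366 without radiofrequency ablation plus anti-PD-1 replicate 2. Without anti-PD-1, limma called 0 genes when cryo-thermal replicate 1 or 2 was left out, with 1584 and 2031 at an unadjusted p under 0.05, and 1802 when replicate 3 was left out. It called 1, 1 and 14 without cryoablation replicate 1, 2 or 3, 1119 without radiofrequency ablation replicate 2, and 248 or 354 without cryo-thermal plus anti-PD-1 replicate 2 or 3. With erythroid level as a covariate the comparison without anti-PD-1 called 0 genes, with 834 at an unadjusted p under 0.05. Fitted on only the tumours of 1 state, limma called 416 genes with anti-PD-1 and 0 without it. At an unadjusted p under 0.05 these fits had 2642 and 2822 genes.

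**Figure D1:**
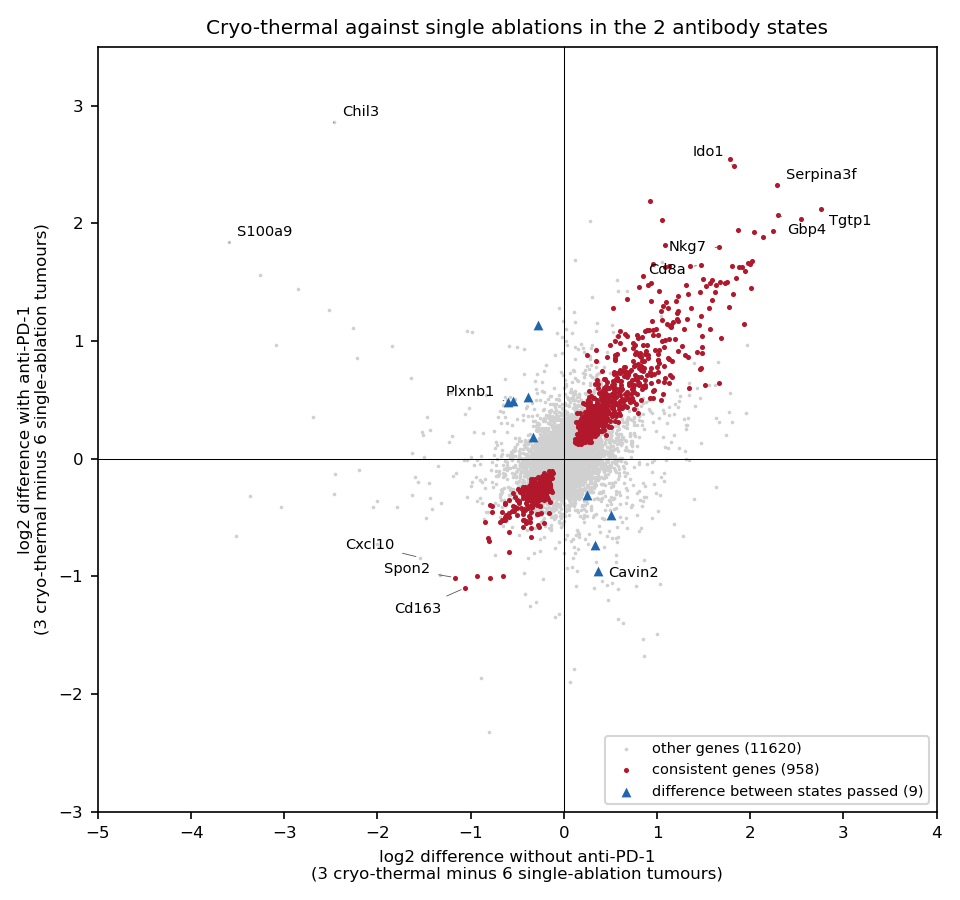
Log2 difference between cryo-thermal and single-ablation tumours with anti-PD-1 (vertical axis, 3 against 6 tumours) against the same difference without it (horizontal axis, 3 against 6), each point being a gene. The 958 consistent genes (red) lie along the diagonal from Cd163 to Tgtp1, while the 9 genes that passed the test of the difference between states (blue triangles) lie away from it. The rule that chose each set favours these positions.

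Genes induced by interferon gamma had the largest differences. Of 23 such genes, 21 were higher, all 21 consistent, and 1 was lower, with a median log2 difference of 1.61 against -0.0031 over all genes. The medians were 1.5 with anti-PD-1 and 1.77 without it. The list was chosen with earlier results of these data known. In bulk tumours, fewer cells of a type and less RNA per cell cannot be told apart, here or in any list that follows. Counts of called list members are to be read beside the 14.8% of all genes tested that passed (9.02% higher, 5.78% lower). Only members past the filter are counted. The filter takes the mean over all 18 tumours, so a low gene can pass it through the side where it is high. Leaving out any 1 tumour left 21 or 22 of the interferon gamma genes higher. Among single-ablation tumours, these genes had the highest mean log2 level after cryoablation plus anti-PD-1 in replicate 1 and after radiofrequency ablation plus anti-PD-1 in replicates 1 and 3. The same tumours had the highest summed T cell markers of their side, at 24.9, 14.7 and 19.9 FPKM.

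Tgtp1 stood at 53.2, 51.7 and 50.8 FPKM in the cryo-thermal tumours with anti-PD-1 and at 42.7, 30.1 and 21.7 FPKM in those without it. Single-ablation tumours ranged from 2.24 to 27.6 FPKM (median 15.9) with anti-PD-1 and from 0.697 to 12.8 FPKM (median 2.32) without it. The groups did not overlap in either antibody state, although the highest single-ablation tumour with antibody exceeded the lowest cryo-thermal tumour without it. The pooled log2 difference was 2.44 (SE 0.50, limma adjusted p = 0.00514). Tgtp1 and its near-identical neighbour Tgtp2 (log2 1.82) may share reads, and how the authors assigned shared reads was not given in the sources used here. Ido1, the enzyme that breaks down tryptophan and restrains T cells, had the smallest p among the 12 leading genes. It stood at 8.73, 10.5 and 12.1 FPKM in cryo-thermal tumours with anti-PD-1 and at 5.15, 3.36 and 3.03 FPKM in those without it. Single-ablation values were 0.259 to 4.46 FPKM (median 0.75) with the antibody and 0 to 1.23 FPKM (median 0.133) without it. Each state was free of overlap. The pooled means were 7.14 ± 3.82 FPKM (SD, n = 6) and 0.879 ± 1.24 FPKM (SD, n = 12), a log2 difference of 2.16 (SE 0.27, adjusted p = 0.00114).

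Igtp, a GTPase that acts on vacuoles of intracellular parasites, was the leading gene with no overlap at all between the 6 and the 12 tumours. Its lowest cryo-thermal value was 87.5 FPKM and its highest single-ablation value 78.7 FPKM. The log2 difference was 2.09 (SE 0.42, adjusted p = 0.0048). The related GTPase Iigp1 averaged 132 ± 42.8 FPKM in cryo-thermal and 37.4 ± 32.1 FPKM in single-ablation tumours (log2 2.29), and Gbp4, a guanylate-binding protein, 31.3 ± 10.2 and 7.92 ± 6.56 FPKM (log2 2.19). Serpina3f was at 29.0, 29.5 and 31.2 FPKM with anti-PD-1 and at 19.5, 12.8 and 10.5 FPKM without it in cryo-thermal tumours. In single-ablation tumours it ran from 1.3 to 13.1 FPKM with the antibody and from 0.524 to 8.36 FPKM without it. Ubd was 2.17 higher on the log2 scale, without overlap in the state with antibody only. Irf1, a transcription factor of the pathway, averaged 99.4 ± 20.9 FPKM in cryo-thermal and 51.3 ± 21.6 FPKM in single-ablation tumours (log2 1.02). Socs1, the feedback inhibitor of the receptor, was 0.86 higher. The other leading genes outside the list were the non-coding transcript AW112010 (1.98), the apolipoprotein L gene Apol6 (1.90), the Fc receptor Fcgr4 (1.82) and the transcription factor Batf2 (1.77). All 12 leading genes passed the pooled test with any 1 tumour left out, with adjusted p up to 0.0251 for Tgtp2. The cytokine itself, Ifng, was at 3.56, 3.66 and 2.62 FPKM in cryo-thermal tumours with anti-PD-1 and at 2.19, 1.18 and 0.455 FPKM without it. Single-ablation tumours had 0.0858 to 1.05 FPKM with the antibody and 0 to 0.35 FPKM without it, with no overlap in either state. Its log2 difference was 1.21 (SE 0.17, adjusted p = 0.00116).

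Not every target followed. Cxcl10, a chemokine for CXCR3-bearing T cells and an interferon target, was lower in cryo-thermal tumours by 1.19 on the log2 scale (log2 -1.19, SE 0.32, adjusted p = 0.0198). It stood at 235, 144 and 57.8 FPKM with anti-PD-1 and at 39.0, 77.7 and 73.9 FPKM without it in cryo-thermal tumours. Single-ablation tumours had 77.7 to 368 FPKM (median 271) with the antibody and 141 to 259 FPKM (median 174) without it. Without antibody all 3 cryo-thermal tumours lay below all 6 others, and with it the groups overlapped. The call was lost without cryo-thermal replicate 1 (adjusted p = 0.0683) or cryo-thermal plus anti-PD-1 replicate 3 (0.0605). Cxcl9, its relative with the same receptor, did not pass, with means of 23.2 ± 10.2 FPKM and 12.1 ± 8.16 FPKM and a log2 difference of 1.05 (adjusted p = 0.0688).

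**Figure D2:**
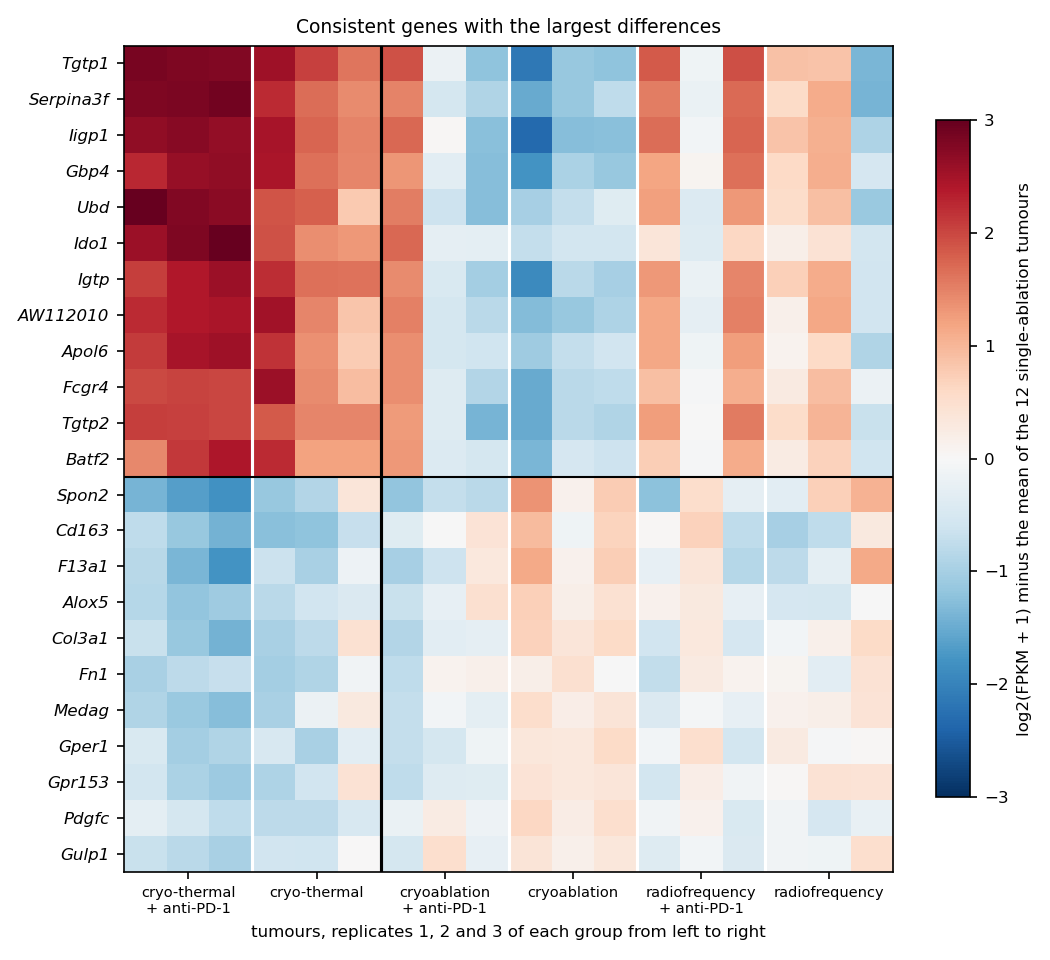
Log2(FPKM + 1) of the 12 highest and 11 of the 12 lowest consistent genes in each of the 18 tumours, relative to the mean of the 12 single-ablation tumours, with the cryo-thermal groups on the left. The 12 higher genes are red in all 6 cryo-thermal tumours, and Spon2 and Col3a1 are blue in 5 of the 6 and pale red in cryo-thermal replicate 3.

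Genes of antigen presentation were higher. All 18 genes of MHC class I presentation passed and were consistent, with a median log2 difference of 0.91. The immunoproteasome subunit Psmb9 averaged 83.6 ± 19.7 FPKM in cryo-thermal and 32.9 ± 21.3 FPKM in single-ablation tumours (log2 1.55, SE 0.35, adjusted p = 0.00827). Tap1, which carries peptides into the endoplasmic reticulum, was 1.32 higher and the non-classical class I gene H2-T23 was 1.42 higher. The classical heavy chain H2-K1 averaged 1360 ± 222 and 785 ± 251 FPKM (log2 0.84). The smallest difference in the list was that of B2m, the light chain of all class I molecules, at 4220 ± 504 and 3081 ± 726 FPKM (log2 0.48, adjusted p = 0.0278). Of 10 genes of class II presentation 8 were past the filter. Of these 7 were higher, with a median of 1.36, and H2-DMb2 (0.35) did not pass. H2-Eb1, a class II beta chain, was at 142, 269 and 323 FPKM with anti-PD-1 and at 205, 155 and 109.8 FPKM without it in cryo-thermal tumours. Single-ablation tumours had 37.2 to 132 FPKM with the antibody and 19.1 to 163 FPKM without it. With antibody the groups were apart and without it they overlapped, and the pooled log2 difference was 1.72 (SE 0.37, adjusted p = 0.00606). Cd74, the invariant chain, was 1.59 higher and Ciita, the master regulator of class II genes, 0.88 higher. MHC genes are near-identical in places, so values of single members are uncertain.

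Most genes of T cells and cytotoxic lymphocytes were higher. Of 15 T cell genes 10 were past the filter, and all 10 passed and were consistent, with a median log2 difference of 1.10. With no filter on low values 13 were called higher, and at a mean of at least 2 FPKM 3 were. Summed FPKM of the 15 T cell markers ran from 40.1 to 42.7 in cryo-thermal tumours with anti-PD-1 and from 12.8 to 42.8 in those without it. In single-ablation tumours the sums were 6.78 to 24.9 (median 12.6) with the antibody and 3.09 to 13.1 (median 5.43) without it. The lowest cryo-thermal sum thus lay just under the highest single-ablation sum without antibody. Cd3d, a chain of the T cell receptor complex, stood at 2.8, 3.23 and 3.78 FPKM with anti-PD-1 and at 3.36, 2.2 and 1.25 FPKM without it in cryo-thermal tumours. Single-ablation tumours had 0.395 to 1.68 FPKM with the antibody and 0.0518 to 0.752 FPKM without it. No tumour crossed between the groups in either state, and the log2 difference was 1.23 (SE 0.15, adjusted p = 0.00114). Cd3e of the same complex was 1.20 higher (adjusted p = 0.00464), and the co-receptor Cd4 was 0.53 higher (adjusted p = 0.0136).

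Of 16 cytotoxic genes 13 were past the filter, and of these 10 were higher and 9 were consistent. Cd8a, the co-receptor of killer T cells, was at 4.72, 5.93 and 6.31 FPKM with anti-PD-1 and at 5.2, 3.48 and 1.95 FPKM without it in cryo-thermal tumours. Single-ablation tumours had 0.381 to 3.09 FPKM (median 1.05) with the antibody and 0.15 to 1.67 FPKM (median 0.511) without it. The groups did not overlap in either state, with a log2 difference of 1.56 (SE 0.22, adjusted p = 0.00116). Nkg7, a granule protein of killer cells, averaged 11.8 ± 4.21 and 3.04 ± 2.00 FPKM (log2 1.73). Gzmb, the granzyme B protease, was 1.37 higher on the log2 scale but was not consistent, and it lost its call without cryo-thermal replicate 1 (adjusted p = 0.0513). Perforin (Prf1, log2 0.78, adjusted p = 0.102) and granzyme A (Gzma, 1.15, adjusted p = 0.0532) did not pass, and a single-ablation tumour with antibody held the highest Prf1 value, 12.3 FPKM. Of 10 NK cell genes 6 were past the filter and 5 were higher. Among them were the inhibitory receptor gene Klrc1 (1.06), the activating receptor gene Klrk1 (0.93) and Ncr1, a receptor of NK cells (0.32, adjusted p = 0.0392). Klrc1, Klrk1 and Il2rb are also made by T cells.

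Of 8 regulatory T cell genes 6 were past the filter, with a median log2 difference of 0.62, and 5 were higher and consistent. Ctla4, an inhibitory receptor of T cells, averaged 3.85 ± 1.35 and 1.36 ± 1.10 FPKM (log2 1.11, adjusted p = 0.00267). The costimulatory receptor gene Tnfrsf18 was 0.89 higher and the interleukin 2 receptor gene Il2ra 0.51 higher. Foxp3, the defining factor, was below the filter, at 0.174 to 0.733 FPKM in cryo-thermal and 0.0532 to 0.754 FPKM in single-ablation tumours. These ranges overlapped, and bulk RNA does not show whether regulatory or other T cells made the higher genes of the list. Of the B and plasma cell list only Jchain, the joining chain of secreted antibodies, was past the filter. It stood at 4.77, 4.06 and 0.637 FPKM in cryo-thermal tumours without antibody and at 0.511 to 0.85 FPKM in those with it, against 0 to 1.56 FPKM in single-ablation tumours. The log2 difference of 0.99 (adjusted p = 0.0231) was not consistent, and was lost without cryo-thermal replicate 1 (0.0776) or 2 (0.072) and with no filter on low values (0.0529).

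Of 13 checkpoint genes 10 were past the filter, with a median log2 difference of 0.95. Of these 8 were higher, 7 of them consistent. Pdcd1, which encodes PD-1, was at 2.9, 3.59 and 3.94 FPKM with anti-PD-1 and at 3.89, 2.08 and 1.19 FPKM without it in cryo-thermal tumours. Single-ablation tumours had 0.52 to 1.97 FPKM with the antibody and 0.135 to 1.12 FPKM without it. No group overlapped the other within a state, and the log2 difference was 1.17 (SE 0.17, adjusted p = 0.00133). Cd274, which encodes PD-L1, averaged 15.5 ± 5.20 and 5.98 ± 3.29 FPKM (log2 1.31, adjusted p = 0.0044) and was also apart in both states. Pdcd1lg2, the second ligand, had a log2 difference of 1.05 that was not consistent, with 1.52 with anti-PD-1 and 0.57 without it. Vsir and Lgals9 did not pass, at 0.28 and 0.18.

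Ccl5, the T cell chemokine of the series title, was higher. It stood at 6.49, 9.51 and 8.7 FPKM with anti-PD-1 and at 5.58, 6.62 and 7.39 FPKM without it in cryo-thermal tumours. Single-ablation tumours had 2.14 to 2.96 FPKM (median 2.61) with the antibody and 1.46 to 11.2 FPKM (median 3.46) without it. With antibody the groups were far apart, and without it 1 single-ablation tumour exceeded all cryo-thermal tumours. The log2 difference was 1.02 (SE 0.23, adjusted p = 0.00802), with 1.36 (adjusted p = 0.0223) with anti-PD-1 and 0.68 (adjusted p = 0.188) without it. The difference between the states, 0.68, had an adjusted p of 0.654. Bulk RNA does not show which cells made it, and lymphocytes and myeloid cells both can. Of 19 genes of leukocyte traffic 8 were higher and 1, Cxcl10, was lower. Cxcr6, a receptor of tissue T cells, averaged 3.3 ± 1.28 and 0.94 ± 0.507 FPKM (log2 1.13). Ccl11, an eosinophil chemokine, was 1.07 higher, Ccl4, an inflammatory chemokine, 1.05 higher and Cxcl14, though not consistent, 0.84 higher, whereas Ccl2, which draws monocytes, did not pass at -0.16.

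**Figure D3:**
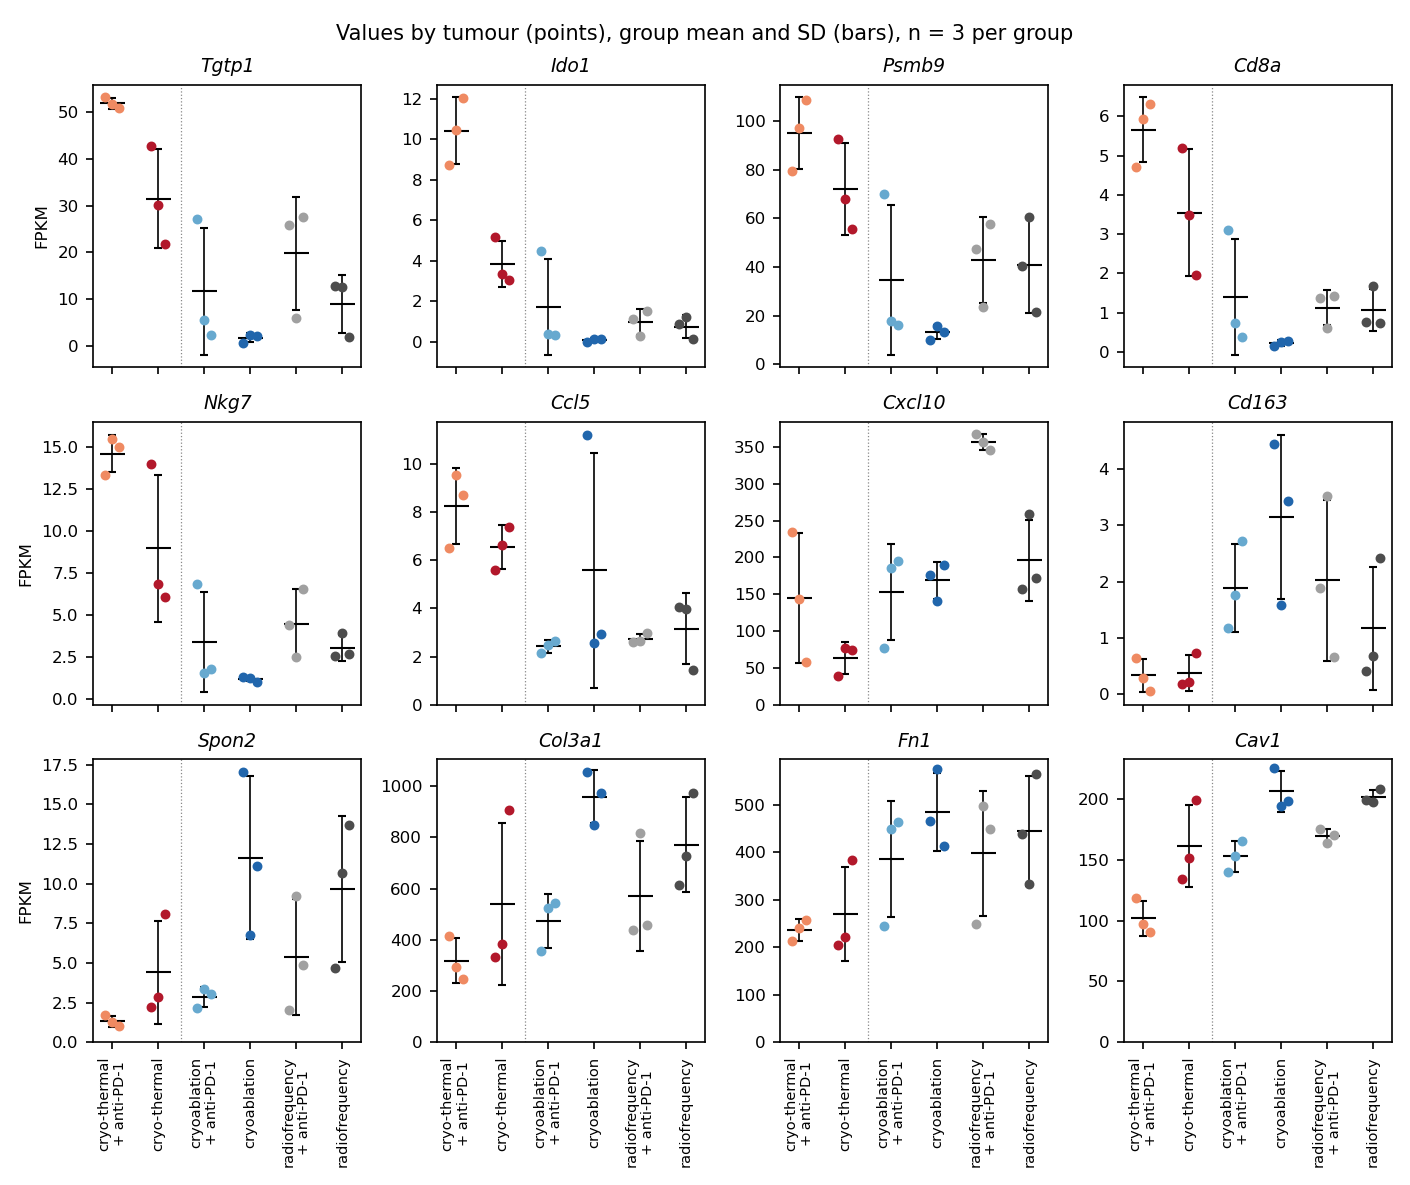
FPKM of 12 genes in each tumour (points) with the group mean and SD (bars, n = 3), the cryo-thermal groups left of the dotted line. Tgtp1, Ido1, Psmb9, Cd8a and Nkg7 are high in both cryo-thermal groups, Ccl5 overlaps without antibody, and Cxcl10, Cd163, Spon2, Col3a1, Fn1 and Cav1 are low with 1 or more tumours reaching the single-ablation range.

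Myeloid genes moved in both directions. Of 20 macrophage and monocyte genes 7 were higher and 3 lower, with a median log2 difference of 0.21. Ly6c2, a surface protein of inflammatory monocytes, averaged 8.24 ± 3.26 FPKM in cryo-thermal and 3.24 ± 2.23 FPKM in single-ablation tumours (log2 1.19, adjusted p = 0.00885), and reads may be shared with its near-copy. Fcgr1, the high-affinity IgG receptor, was 0.56 higher and C1qa, which starts the classical complement cascade, 0.52 higher. Itgam, which encodes CD11b of myeloid cells, averaged 28.1 ± 5.09 and 21.2 ± 3.04 FPKM (log2 0.39, adjusted p = 0.0209). Its call was lost without cryo-thermal replicate 1 (0.0722) or cryo-thermal plus anti-PD-1 replicate 2 (0.0505) or 3 (0.0568). The number of higher genes in the list was 1 without cryo-thermal replicate 1, 4 without replicate 2, and 2 and 1 without cryo-thermal plus anti-PD-1 replicates 2 and 3. Fcgr1 lost its call without any of 10 tumours, with adjusted p up to 0.134.

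The lower genes of the list were Cd163, Cbr2 and Mertk. Cd163, the receptor for haemoglobin and haptoglobin, was at 0.646, 0.284 and 0.0587 FPKM with anti-PD-1 and at 0.17, 0.213 and 0.733 FPKM without it in cryo-thermal tumours. Single-ablation tumours had 0.657 to 3.52 FPKM (median 1.82) with the antibody and 0.403 to 4.45 FPKM (median 2.00) without it. With antibody the groups were just apart, and without it cryo-thermal replicate 3 reached into the range of the others. The log2 difference was -1.08 (SE 0.26, adjusted p = 0.0112). Cbr2, a carbonyl reductase of resident macrophages, had a log2 difference of -1.38 that was not consistent (adjusted p = 0.0198). It lost its call without cryo-thermal plus anti-PD-1 replicate 2 (0.0547) or 3 (0.058). Mertk, a receptor for the uptake of dead cells, was lower too (log2 -0.50, adjusted p = 0.0194) and not consistent. Alox5, which makes leukotrienes, averaged 0.863 ± 0.374 and 2.4 ± 1.03 FPKM (log2 -0.83, adjusted p = 0.00757).

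Of 12 genes of classical myeloid activation 7 were higher and 6 consistent, with a median log2 difference of 0.46. Nos2, the inducible nitric oxide synthase, was at 15.9, 21.3 and 23.5 FPKM with anti-PD-1 and at 14.8, 5.3 and 3.82 FPKM without it in cryo-thermal tumours. Single-ablation tumours had 1.8 to 7.56 FPKM with the antibody and 1.79 to 4.26 FPKM without it. The groups were apart with antibody and overlapped without it, and the log2 difference was 1.55 (SE 0.30, adjusted p = 0.00353). Acod1, which makes itaconate, was 1.54 higher, the costimulatory ligand Cd86 was 0.72 higher and Cd40, a receptor for help from T cells, 0.77 higher. The interleukin genes Il1b (0.91) and Il6 (-0.20) did not pass. Of 10 genes of alternative activation 2 were higher, Pdcd1lg2 and the transglutaminase Tgm2 (log2 0.61, adjusted p = 0.00222). That was 20% of the list, against 14.8% of all genes tested. With anti-PD-1 alone 5 of the 10 were called higher, and without it 1, while the difference between states was called for 0. Arg1, which consumes arginine, did not pass (0.50, adjusted p = 0.065). Of 9 dendritic cell genes 2 were higher, the transcription factor Irf8 (1.14) and the integrin Itgax (1.07), both also expressed by macrophages. These were 22.2% of the list, against 14.8% of all genes tested. Flt3, the receptor of dendritic cell precursors, was below the filter, at 0.017 to 0.276 FPKM in cryo-thermal and 0.00852 to 0.216 FPKM in single-ablation tumours.

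Complement genes were mostly higher. Of 13 genes in the list, 1 of them the clotting gene F13a1, 7 were higher and 2 lower, all 9 consistent. C3, the central component, averaged 30.9 ± 11.0 FPKM in cryo-thermal and 13.0 ± 5.30 FPKM in single-ablation tumours (log2 1.22, adjusted p = 0.00291). Cfb, of the alternative pathway, was 1.15 higher, the inhibitor of C1 Serping1 1.12 higher and the protease C1s1 0.98 higher. F13a1, a clotting transglutaminase that macrophages make, was lower (log2 -0.96, adjusted p = 0.0291). It lost its call without cryo-thermal replicate 1 (0.0667) or 2 (0.0745) or cryo-thermal plus anti-PD-1 replicate 2 (0.0601) or 3 (0.0777), and with no filter on low values (0.0672).

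Lower genes included matrix proteins, and their differences were smaller than those of the higher genes, with 2 consistent genes lower by more than 2-fold against 98 higher. Spon2, a secreted adhesion protein, was at 1.69, 1.24 and 1.02 FPKM with anti-PD-1 and at 2.24, 2.84 and 8.12 FPKM without it in cryo-thermal tumours. Single-ablation tumours had 2.00 to 9.25 FPKM (median 3.19) with the antibody and 4.67 to 17.0 FPKM (median 10.9) without it. Within each state, cryo-thermal replicate 3 alone reached the single-ablation range. The log2 difference was -1.09 (SE 0.28, adjusted p = 0.015), and it was lost without cryo-thermal replicate 1 (0.0529). Col3a1, a fibrillar collagen, averaged 429 ± 240 and 694 ± 238 FPKM (log2 -0.75, adjusted p = 0.018). Its call was lost without cryo-thermal replicate 1 (0.0636) or 2 (0.0538) or cryo-thermal plus anti-PD-1 replicate 3 (0.052). Fn1, the matrix protein fibronectin, averaged 254 ± 67.1 and 429 ± 106 FPKM (log2 -0.74, SE 0.17, adjusted p = 0.0092), and kept its call with any 1 tumour left out. The growth factor gene Pdgfc (-0.61), the oestrogen-binding receptor gene Gper1 (-0.69), the engulfment adaptor Gulp1 (-0.61) and Medag (-0.69) were lower and kept theirs as well. The receptor gene Gpr153 (-0.61) lost its call without cryo-thermal replicate 1 (0.0661) or 2 (0.0557) or cryo-thermal plus anti-PD-1 replicate 3 (0.0514).

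The fibroblast and matrix list as a whole was mixed. Of 14 genes 4 were lower and 1 higher, with a median of -0.10, and the other 9 did not pass. Pdgfrb, a receptor of pericytes and fibroblasts, was lower (-0.52, adjusted p = 0.00661), as was the collagen gene Col5a1 (-0.45), whereas the main collagen gene Col1a1 averaged 179 ± 65.8 and 161 ± 46.6 FPKM (0.14, adjusted p = 0.685). The number of lower genes fell to 1 without cryo-thermal replicate 1, without replicate 2, or without cryo-thermal plus anti-PD-1 replicate 3. The higher gene, Mfap5 of elastic fibres (0.67, adjusted p = 0.047), lost its call without any of 13 tumours, with adjusted p up to 0.149. Of 7 genes of caveolae, small pits of the cell membrane, 3 were lower and none higher. Cav1, their coat protein, was at 118, 96.9 and 90.8 FPKM with anti-PD-1 and at 134, 151 and 199 FPKM without it in cryo-thermal tumours. Single-ablation tumours had 140.3 to 175 FPKM with the antibody and 195 to 226 FPKM without it. With antibody the groups were apart, and without it cryo-thermal replicate 3 lay inside the single-ablation range. The log2 difference was -0.51 (SE 0.08, adjusted p = 0.00175). Cav2 (-0.44) and Cavin1 (-0.28) were lower as well but not consistent. Without cryo-thermal replicate 3 the number was 5. Egr3, an immediate early transcription factor, was lower with no overlap between the 6 and the 12 tumours, the highest cryo-thermal value being 4.58 FPKM and the lowest single-ablation value 4.67 FPKM (log2 -0.50, adjusted p = 0.00175). It was the only 1 of 14 immediate early genes to pass (7.14%, against 14.8% of all genes tested). The list had medians of -0.32 with anti-PD-1 and 0.14 without it. The difference between states passed for 0 of the 14, with 8 at an unadjusted limma p under 0.05.

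**Figure D4:**
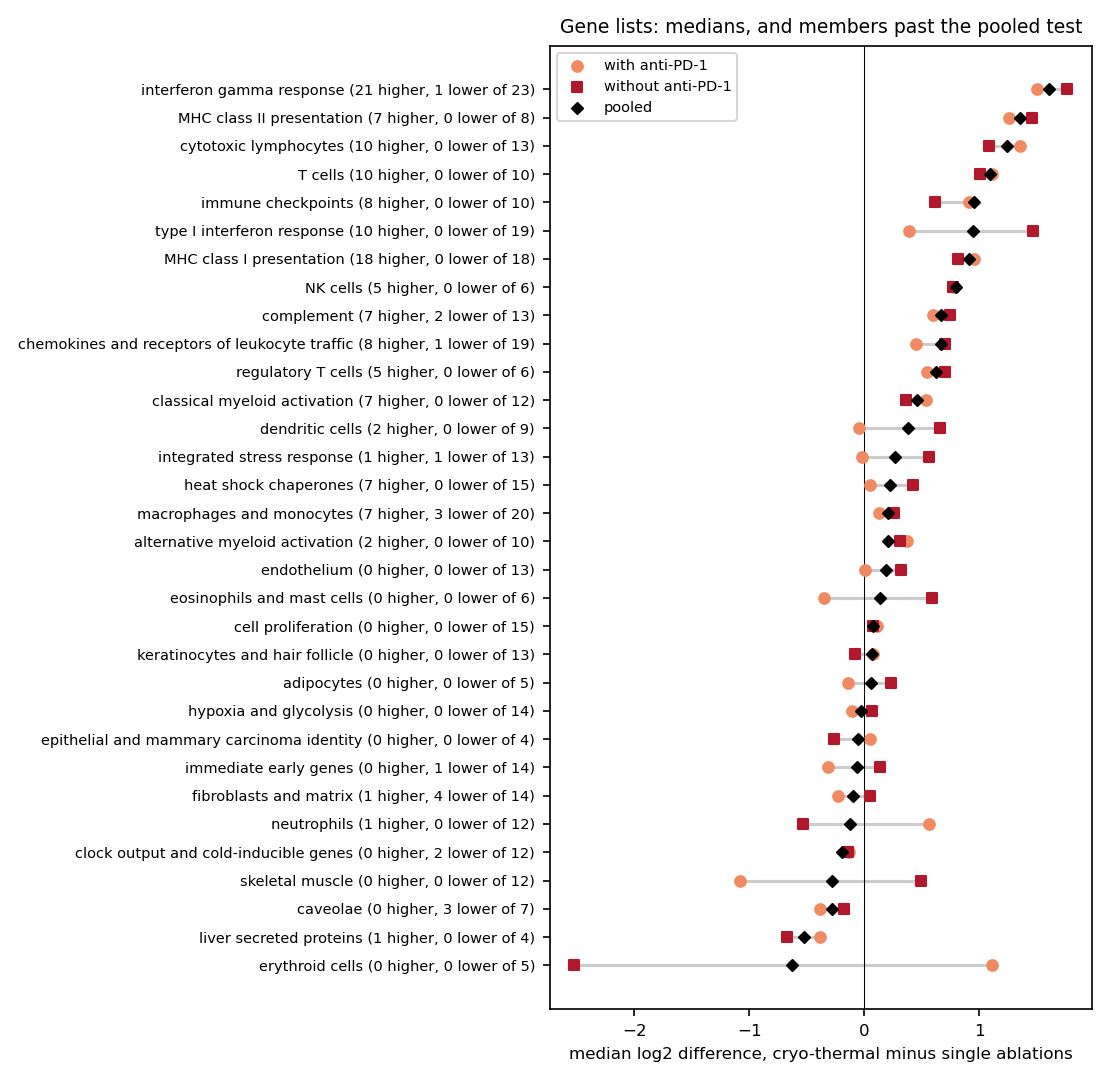
Median log2 difference of each gene list with at least 4 members past the filter, with anti-PD-1 (circles), without it (squares) and pooled (diamonds), beside the number of members higher and lower in the pooled test. Interferon gamma, MHC class II, cytotoxic and T cell lists lie at 1.01 or more in both states. Erythroid, muscle and neutrophil lists lie on opposite sides of 0 in the 2 states, as do several others, among them eosinophil and mast cell genes.

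Type I interferon genes, which respond to interferon alpha and beta and form the antiviral programme, were partly higher. Of 19 genes 10 were higher and 3 consistent, with medians of 0.39 with anti-PD-1 and 1.47 without it. With anti-PD-1 none passed by limma (3 at an unadjusted p under 0.05), and without it 10 did. The difference between the states passed for none of the 19 (4 at an unadjusted p under 0.05). Zbp1, a sensor of nucleic acids, was apart in both states (log2 1.54, adjusted p = 0.00885). Ifit1, a classical member, was at 6.13 to 7.63 FPKM with anti-PD-1 and at 18.5, 8.92 and 9.53 FPKM without it in cryo-thermal tumours. Single-ablation tumours had 2.89 to 9.97 FPKM with the antibody and 0.999 to 9.22 FPKM without it, and the pooled difference of 0.68 did not pass (adjusted p = 0.188). Bst2, which tethers viruses to the cell, was 1.24 higher and lost its call without cryo-thermal replicate 1 (0.0513). The number of higher genes was 2 without cryo-thermal replicate 1, 4 without replicate 2 and 5 without cryo-thermal plus anti-PD-1 replicate 3. It was 6 without cryoablation replicate 1, 2 or 3 or cryoablation plus anti-PD-1 replicate 2 or 3, 4 with no filter on low values and 18 with a mean for each of the 6 groups.

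Heat shock chaperones, which refold proteins, showed small differences. Of 15 genes 7 were higher in the pooled test and none consistent, with medians of 0.05 with anti-PD-1 and 0.42 without it. With anti-PD-1, 0 were called higher, and without it 8 were. The difference between states passed for 0 of the 15, with 10 at an unadjusted limma p under 0.05. Stip1, which joins the chaperones HSP70 and HSP90, was at 172, 177 and 184 FPKM with anti-PD-1 and at 158, 181 and 168 FPKM without it in cryo-thermal tumours. Single-ablation tumours had 149 to 177 FPKM with the antibody and 105 to 131 FPKM without it. Without antibody the groups were apart and with it they overlapped, for a pooled log2 difference of 0.32 (adjusted p = 0.0053). The number of higher genes in the pooled test was 2 without cryo-thermal replicate 1 or 2 and 4 without cryo-thermal replicate 3. It was 3 or 4 without cryoablation replicate 1, 2 or 3, cryoablation plus anti-PD-1 replicate 2 or 3, radiofrequency ablation replicate 2 or 3, or radiofrequency ablation plus anti-PD-1 replicate 2. It was 3 with erythroid level as a covariate, with the replicate block or with no filter on low values. Cirbp, an RNA-binding protein induced by cold, was lower (log2 -0.42, adjusted p = 0.0253), with its call lost without cryo-thermal replicate 1 (0.0766) or 2 (0.0642) and with no filter (0.0559). Of 13 genes of the integrated stress response Cebpb, a transcription factor, was higher (0.34) and Ddit4, an inhibitor of mTOR, lower (-0.51). Of 12 clock output and cold-inducible genes Tef was lower besides Cirbp (-0.22), and of 4 liver secreted proteins transferrin (Trf) was higher (0.58). The called shares of the stress response and clock lists, 15.4% and 16.7%, were near the 14.8% of all genes tested. The share of the liver list was 25%. Cebpb lost its call without any 1 of 12 tumours (adjusted p up to 0.137), Tef of 14 (up to 0.143) and Trf of 9 (up to 0.107). Ddit4 lost it without cryo-thermal replicate 1 or 2 or cryo-thermal plus anti-PD-1 replicate 2 or 3 (up to 0.0907).

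Several lists of other tissues and processes had no member past limma's pooled test. None of 15 proliferation genes passed (3 higher at an unadjusted p under 0.05), with a median log2 difference of 0.08. Likewise none passed of 14 hypoxia genes (1 higher unadjusted), 13 endothelial genes (2 higher unadjusted), 13 keratinocyte genes, 12 muscle genes, 5 adipocyte genes, 5 erythroid genes, 6 eosinophil and mast cell genes, 4 epithelial genes and 1 melanocyte gene (none unadjusted). Several of these lists had medians of opposite sign in the 2 states. Muscle genes had a median of -1.08 with anti-PD-1 and 0.50 without it, and erythroid genes 1.11 with it and -2.52 without it. With anti-PD-1, 3 muscle genes were called lower and 1 epithelial gene higher, and without it 2 erythroid genes were called lower. The difference between states passed for 0 genes of these lists. At an unadjusted limma p under 0.05 it had 11 muscle genes, 5 erythroid genes, 1 epithelial gene and 1 gene of the eosinophil and mast cell list. Neutrophil genes had medians of 0.57 with anti-PD-1 and -0.53 without it. With anti-PD-1, 1 of 12 was called higher, and without it 4 were called lower. In the pooled test 1 of 12 passed (8.33%, against 14.8% of all genes tested). This was Trem1, an amplifier of inflammation (log2 0.39, adjusted p = 0.0245). Its call was lost without cryo-thermal replicate 2 (0.0579), without any of the cryo-thermal plus anti-PD-1 replicates 1 to 3 (0.0569, 0.0536 and 0.0572), with no filter on low values (0.0563), or without the 3 tumours rich in hair follicle RNA (0.0942).

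The test of the difference between states passed for 9 genes, 0.0715% of those tested, 5 with a positive difference (0.0397%) and 4 with a negative one (0.0318%), and with 1225 at an unadjusted p under 0.05. Cavin2, a caveolar coat protein that did not pass the pooled test, led them. It was at 6.17, 5.78 and 5.29 FPKM with anti-PD-1 and at 17.1, 16.4 and 15.2 FPKM without it in cryo-thermal tumours. Single-ablation tumours had 10.3 to 17.4 FPKM with the antibody and 11.3 to 14.9 FPKM without it. Cryo-thermal tumours thus lay below the single-ablation tumours with antibody and above them without it, and the log2 difference between states was -1.32 (adjusted p = 0.00712). Plxnb1, a semaphorin receptor, went the other way. It was at 1.64, 1.57 and 1.53 FPKM with anti-PD-1 and at 0.285, 0.583 and 0.715 FPKM without it in cryo-thermal tumours, against 0.633 to 1.02 and 0.947 to 1.7 FPKM in single-ablation tumours in the same order (1.08 between states, adjusted p = 0.0141). Anxa3, a calcium-binding annexin, differed by -0.56 between states (adjusted p = 0.0229). The count was unstable, at 2, 1 and 27 without cryo-thermal replicate 1, 2 or 3 and 1 without cryo-thermal plus anti-PD-1 replicate 1 or 2. It was 3 and 5 without cryoablation replicate 1 or 3, 5 without cryoablation plus anti-PD-1 replicate 3, 20 without radiofrequency ablation replicate 2 and 14 without radiofrequency ablation plus anti-PD-1 replicate 3.

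Larger changes of sign did not pass that test. Chil3, a chitinase-like protein of alternatively activated macrophages and neutrophils, was at 43.2, 108 and 144 FPKM with anti-PD-1 and at 3.43, 4.05 and 13.4 FPKM without it in cryo-thermal tumours. Single-ablation tumours had 5.24 to 27.2 FPKM with the antibody and 14.6 to 129 FPKM without it. Both states had the groups apart, in opposite directions, with log2 differences of 2.86 with anti-PD-1 and -2.47 without it and an adjusted p of 0.0541 for the difference of 5.33. S100a9, a calcium-binding protein of neutrophils, was at 230.2, 71.9 and 13.7 FPKM with anti-PD-1 and at 20.2, 2.13 and 8.61 FPKM without it in cryo-thermal tumours. Single-ablation tumours had 7.62 to 47.0 FPKM with the antibody and 60.4 to 174 FPKM without it (adjusted p = 0.0671 for the difference of 5.43). The haemoglobin gene Hbb-bs had the same pattern, with log2 differences of 0.97 with anti-PD-1 and -3.08 without it (adjusted p = 0.209 for the difference). The part of blood cells in these values was not tested.

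**Figure D5:**
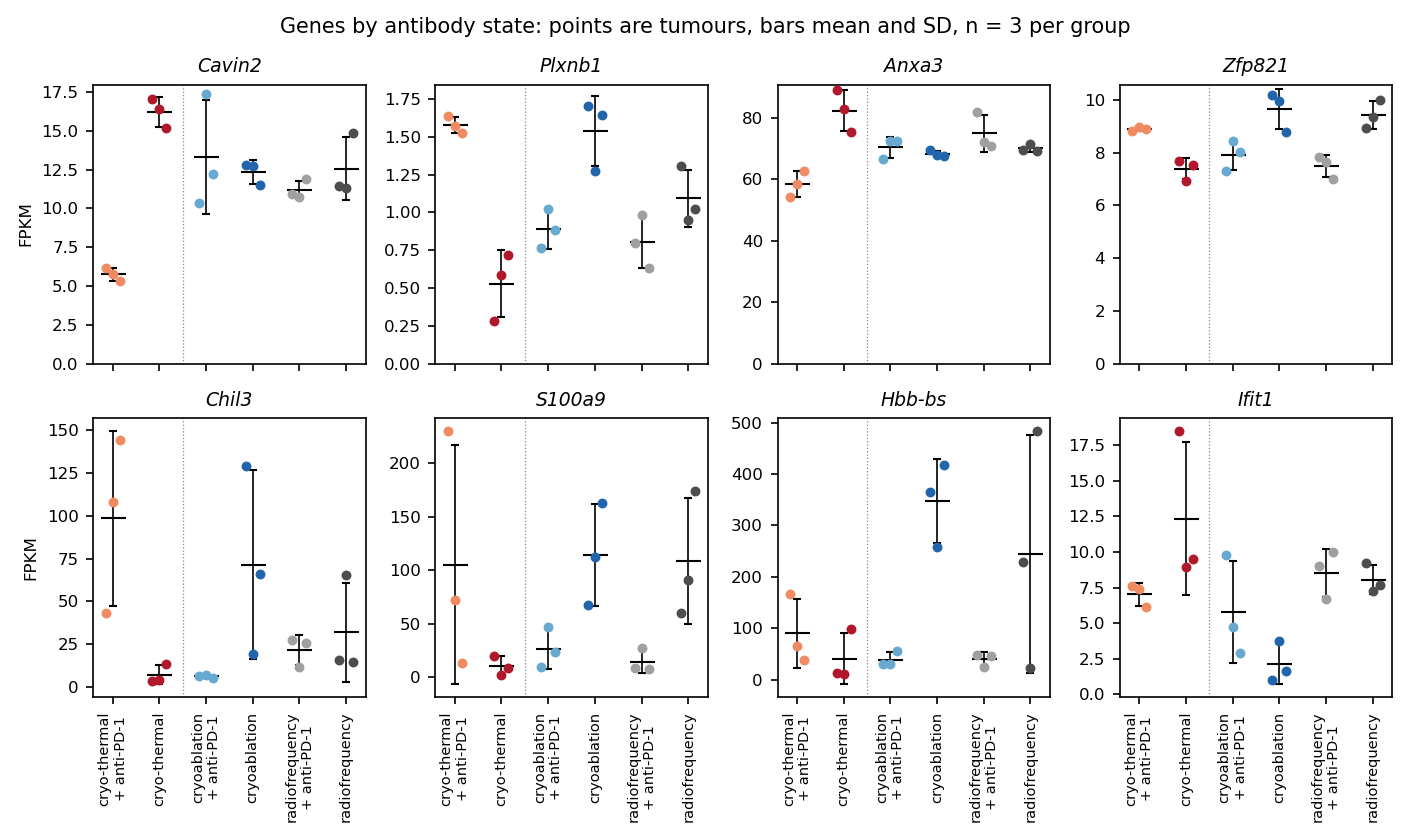
FPKM of 8 genes in each tumour (points) with the group mean and SD (bars, n = 3), the cryo-thermal groups left of the dotted line. Cavin2 and Anxa3 have their lowest mean in cryo-thermal tumours with antibody and their highest in those without it, while Plxnb1, Chil3 and S100a9 show the reverse within the cryo-thermal groups; Chil3, S100a9, Hbb-bs and Ifit1 did not pass the test of the difference.

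Pooling takes the single ablations as 1 level. Fitted apart, cryo-thermal tumours differed from cryoablation in 2268 genes (18%), 1367 higher (10.9%) and 901 lower (7.16%). From radiofrequency ablation they differed in 435 (3.46%), 312 higher (2.48%) and 123 lower (0.977%). Quantile normalisation gave 1175 higher and 1374 lower against cryoablation, and 256 and 185 against radiofrequency ablation. The count against radiofrequency ablation was 40, 97 and 1135 without cryo-thermal replicate 1, 2 or 3, and 0 and 26 without cryo-thermal plus anti-PD-1 replicate 2 or 3. It was 261 and 276 without cryoablation replicate 2 or 3, and 734 without cryoablation plus anti-PD-1 replicate 1. Without radiofrequency ablation replicate 1 or 3 it was 231 and 106, and without radiofrequency ablation plus anti-PD-1 replicate 2 or 3 it was 0 and 148. At an unadjusted p under 0.05, limma had 2421 and 2338 genes where the count was 0.

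Both comparisons share the cryo-thermal tumours, so values are only set side by side. Tgtp1 had a log2 difference of 3.11 from cryoablation (adjusted p = 0.000761) and 1.77 from radiofrequency ablation (0.0563). For Iigp1 the values were 3.01 (0.00067) and 1.56 (0.0678). Ido1 had 2.26 (0.000577) and 2.05 (0.0169), Cd8a 1.73 (0.000577) and 1.38 (0.0169), and Ccl5 0.93 (0.0243) and 1.11 (0.0355). Lower genes gave -1.33 (0.00461) and -0.83 (0.1) for Cd163, -0.77 (0.0155) and -0.72 (0.0576) for Fn1, and -0.81 (0.0965) and -1.57 (0.0288) for Cxcl10. The median of the interferon gamma list was 2.21 against cryoablation and 1.05 against radiofrequency ablation, and that of the T cell list 1.17 and 0.99, beside -0.00107 and -0.00493 over all genes.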

How the data were processed

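RNA was sequenced from 18 mouse tumours, with VAHTS Universal V6 libraries per the labels' protocols. The authors deposited 1 table of FPKM (fragments scaled by gene length and library size). The submitters' processing notes list HTSeq 0.11.2 among their tools. Aligner, build, annotation and strand are not given in the sources used here. There are no counts, so depth was estimated from low values with exon lengths of a GENCODE annotation. Of these values, 99.9% were whole multiples of a step per gene and tumour within 0.05 fragments. The step of each gene was chosen to fit its own values, so that share is in part built in. Of 2179 genes matched to exon lengths, 236 shared the estimated depth, and no interval was computed from it.

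The scale was log2(FPKM + 1). Genes with a mean of at least 0.5 FPKM were fitted with limma 3.58.1 (R 4.3.3) with a term for anti-PD-1 and moderated variances, tested 2-sided, and adjusted by Benjamini and Hochberg over 12587 genes at 0.05. A model with 4 means gave each antibody state and their difference, and a model with 3 ablation levels the separate contrasts. SE is limma's. The fit was tested on simulated data with independent noise for each gene and tumour. Those data held no shared skin or blood RNA and no difference between the single ablations. They therefore do not show how the calls here depend on either. The tumours follow the labels, but the comparison, its members and the 34 gene lists were chosen with earlier results of these data known. Of 463 list entries, 460 were matched, 376 passed the filter, and Mx1, Mx2 and Cxcl11 were not analysed here. A few members are counted but not reported here by name. Named genes were the 12 largest consistent differences in each direction (predicted genes and receptor segments left out), up to 4 called members per list, genes of the series title and the 5 smallest p of the difference. Others named were chosen after their values were seen. Labels state no pairing, and same-numbered tumours were not treated as pairs (correlations of their deviations ran from -0.467 to 0.591, with 13 of 45 over 0.1). Alternatives were other pseudocounts, filters, scalings, weights, covariates, a replicate block and leaving out each tumour. Python 3.11.15, pandas 2.3.3, numpy 2.4.6 and matplotlib 3.10.9 were used otherwise.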

Additional observations from a re-analysis of the deposited data

Results flagged for a closer look

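For 9 genes the difference between cryo-thermal and single-ablation tumours was not the same with and without anti-PD-1, by limma's test of the difference itself. Given as the log2 difference with anti-PD-1 minus that without it, Cavin2 was at -1.32, Plxnb1 at 1.08, Anxa3 at -0.56, Ces1a (a carboxylesterase) at 0.91 and Zfp821 (a zinc finger protein) at 0.52. Pbp2 was at -0.98, and the predicted or unnamed transcripts 4930579C12Rik, Gm36582 and Gm35946 were at 1.41, -1.06 and 1.04. Their adjusted p ran from 0.00712 to 0.0491. For Chil3 the value was 5.33 and did not pass (adjusted p = 0.0541), but every cryo-thermal tumour lay above the others with anti-PD-1 and below them without it. Levels of erythroid and neutrophil RNA also changed order between the states. Their part in these results was not tested for single genes, and with erythroid level as a covariate limma called 0 genes in the test of the difference, with 1019 at an unadjusted p under 0.05.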

How the results depend on the processing

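Among refits of 103 named genes (18 of which had no value at a filter of 2 FPKM), 2781 kept direction and side of the threshold, 160 lost a call, 4 gained one and 24 changed sign. All 24 belonged to 5 genes called for the difference between states and not for the pooled test. Their pooled log2 differences ran from -0.097 to 0.029 (Anxa3), -0.012 to 0.20 (Ces1a), -0.16 to 0.084 (Gm35946), -0.085 to 0.097 (Pbp2) and -0.14 to 0.071 (Plxnb1) when 1 tumour was left out. Array weights gave 0.078 for Gm35946, -0.12 for Pbp2 and 0.075 for Plxnb1, and erythroid level as a covariate 0.076, -0.073 and 0.048. Without the 3 tumours rich in hair follicle RNA, Anxa3 was at 0.031 and Ces1a at -0.037. The count over the pooled test moved by more than 1.5 times with array weights (2867) and, when 1 tumour was left out (917 to 2329), without cryo-thermal replicate 1 or 2 or cryo-thermal plus anti-PD-1 replicate 2 or 3. With no filter on low values the comparison without anti-PD-1 called 30 genes and that with radiofrequency ablation 77. The difference between states called 5 genes at a mean of at least 2 FPKM, 3 with each tumour rescaled to a common total, and 1 without the 3 tumours rich in hair follicle RNA. With the replicate block, an alternative to fits without pairing, the comparison without anti-PD-1 called 354 genes and the difference between states 3, while the pooled count was 1779 and the consistent count 946. Of the 18 tumours, 8 correlated best with their own number. Array weights gave 4499 without anti-PD-1, 5155 with it, 2613 for the difference, 3492 against cryoablation, 951 against radiofrequency ablation and 2021 consistent genes. Erythroid level as a covariate gave 0 without anti-PD-1, 1194 with it, 0 for the difference and 230 consistent genes. Keratinocyte level as a covariate gave 261 without anti-PD-1 and 21 for the difference. A mean for each of the 6 groups gave 974 and 26. A fit on only the tumours without anti-PD-1 called 0 genes, with 2822 at an unadjusted p under 0.05. The cause of these shifts was not tested.

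Leaving out 1 tumour gave 0 to 1802 genes without anti-PD-1, 26 to 754 with it, 1 to 27 for the difference, 1521 to 3027 against cryoablation and 509 to 1197 consistent genes. Against radiofrequency ablation it gave 0 to 1135. Depth is only estimated here, so low genes such as Cd163 and Flt3 carry no counting interval, and absence cannot be read from values near 0.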
